A study of Mus musculus with 2 samples.

Results

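The unfolded protein response genes described here are 10 genes listed by symbol, out of 55536 annotated genes in the deposited gene tables. Each symbol matched 1 gene identifier. They fall into the stress sensors Ern1, Eif2ak3 and Atf6, the transcription factors Xbp1 and Atf4, and the chaperones and folding enzymes Hspa5, Hsp90b1, Calr, Canx and Pdia4 of the endoplasmic reticulum (ER). Total RNA was sequenced from primary neutrophils, labelled as from the spleen of virgin adult male B6CASTF1/J mice, an F1 hybrid with C57BL/6 on the mother's side and CAST/EiJ on the father's, aged 59 days. There was 1 group of 2 libraries, each made from 300 ng of RNA, with no treatment, mutation or second cell type to compare with. The libraries carry separate biosample labels and 1 donor label, and whether different animals gave them is not stated, so their spread may be technical and is all that the errors here measure.

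The ER folds proteins that are bound for secretion, for membranes or for granules. When unfolded proteins build up in its lumen, 3 membrane proteins signal to the nucleus. IRE1, encoded by Ern1, cuts a short segment out of the Xbp1 messenger RNA, and the shifted reading frame gives an active transcription factor. PERK, encoded by Eif2ak3, phosphorylates the initiation factor eIF2 alpha, which slows translation of most messages and favours that of Atf4. ATF6 moves to the Golgi, where site proteases free its transcription factor part. Neutrophil precursors make granule proteins through this same ER, and in mature neutrophils the ER is sparse.

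The sequence that IRE1 acts on is shown because it decides what these tables can and cannot count. The segment was located by a search of the coding bases of Xbp1-201, the main coding transcript, for a pair of CNGCAG loops 26 bases apart. Of 2 such pairs, the 1 whose removal lengthens the reading frame was taken. It lies in exon 4 of 5, on the plus strand at chr11:5524279-5524304 (GRCm38). In the following stretch, chr11:5524262-5524321 from GENCODE release M21, read 5′ to 3′, capitals mark the 26 bases that are removed.
Xbp1: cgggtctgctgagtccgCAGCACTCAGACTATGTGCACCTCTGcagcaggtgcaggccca
The reading frame has 267 codons with the segment and 371 without it. A pair of such loops 26 bases apart was present in 738 of 58797 protein-coding transcripts of the annotation (1.26%), searched over the whole transcript. The annotation holds 4 Xbp1 transcripts with 11 introns, none of 26 bases and the shortest of 300 bases. Messages with and without the segment were therefore counted together as Xbp1, and no share of the spliced form is given.

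The second set of sequences is the ER stress response element, a promoter motif spelled CCAAT, 9 bases of any kind, then CCACG. It is known as a binding site for NF-Y together with ATF6 or XBP1. RefSeq promoters (GRCm38.p6, from 250 bases before to 50 bases after a start site) were searched on both strands, and 9 of the 10 genes had an entry. The motif was present in 39 of 32851 promoters (0.119%) and in 4 of those 9 (44.4%), all of them chaperone genes. The motif and the genes were both taken as known parts of this response, so these shares are a description and not a test. Each line below runs 5′ to 3′ along the strand of the gene, with the motif in capitals, or its reverse complement where it lies on the opposite strand.
Hspa5: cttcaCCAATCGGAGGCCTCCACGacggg
Hsp90b1: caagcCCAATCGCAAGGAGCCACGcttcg
Hsp90b1: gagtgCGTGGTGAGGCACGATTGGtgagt
Calr: caacgCGTGGTCGACCCTCATTGGcccat
Canx: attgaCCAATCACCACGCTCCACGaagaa
The Hspa5 element lies at chr2:34772020-34772048, with its motif ending 46 bases before the RefSeq start; in GENCODE the same stretch is inside an exon of the longer transcript Hspa5-201. Those of Hsp90b1 lie on the minus strand at chr10:86705633-86705661 and chr10:86705528-86705556, with 193 and 88 bases between motif and start. The Calr element is at chr8:84847070-84847098 and the Canx element at chr11:50325795-50325823, both genes on the minus strand, with 143 and 126 bases between motif and start. None of these 4 stretches overlaps an annotated exon. The CCAAT part alone was present in 77.8% of the members' promoters and 37.4% of all promoters. A match of letters is a description of the sequence and not a measured binding site. These letters were not in the windows of Pdia4, Xbp1, Atf4, Ern1 and Eif2ak3.

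Depth was similar, at 18836093 estimated reads for replicate 1 and 18444369 for replicate 2. All 10 neutrophil marker genes reached a level of 1 TPM (a length-corrected share of all transcripts, scaled to a fixed total) in both libraries, and their levels summed to 64071 TPM in replicate 1 and 60414 TPM in replicate 2. Markers of other cells were also present. Monocyte markers summed to 1949 and 1740 TPM, erythroid markers to 966 and 996 TPM, B cell markers to 203 and 146 TPM and plasma cell markers to 36.2 and 32.0 TPM. In bulk RNA, fewer cells of a type and less RNA per cell cannot be told apart. Levels below are TPM, which is per transcript length and so comparable between genes, and ratios between libraries are from estimated read counts.

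All 10 genes were expressed in both libraries. The chaperone genes Hspa5, Calr, Hsp90b1 and Canx and the transcription factor gene Atf4 stood highest, Xbp1 stood below them, and the sensor genes were among the lowest. On the log2(TPM + 1) scale, the median level of the 5 chaperone and folding enzyme genes exceeded the median of the 3 sensor genes by 2.01 in replicate 1 and 2.18 in replicate 2. The mean difference was 2.09 ± 0.12 (SD, n = 2), a 4.27-fold difference on that scale. In both libraries these medians were the levels of single genes, Hsp90b1 and Ern1. The TPM of Hsp90b1 depends on how its transcripts are counted, as described below. Pdia4 (mean 21.2 TPM) stood below the sensor genes Eif2ak3 (26.9 TPM) and Ern1 (25.3 TPM). The difference thus does not hold for every gene of these groups. Summed levels of the chaperone genes were 489 TPM in replicate 1 and 599 TPM in replicate 2, against 61.2 and 63.3 TPM for the sensor genes.

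**Figure D1:**
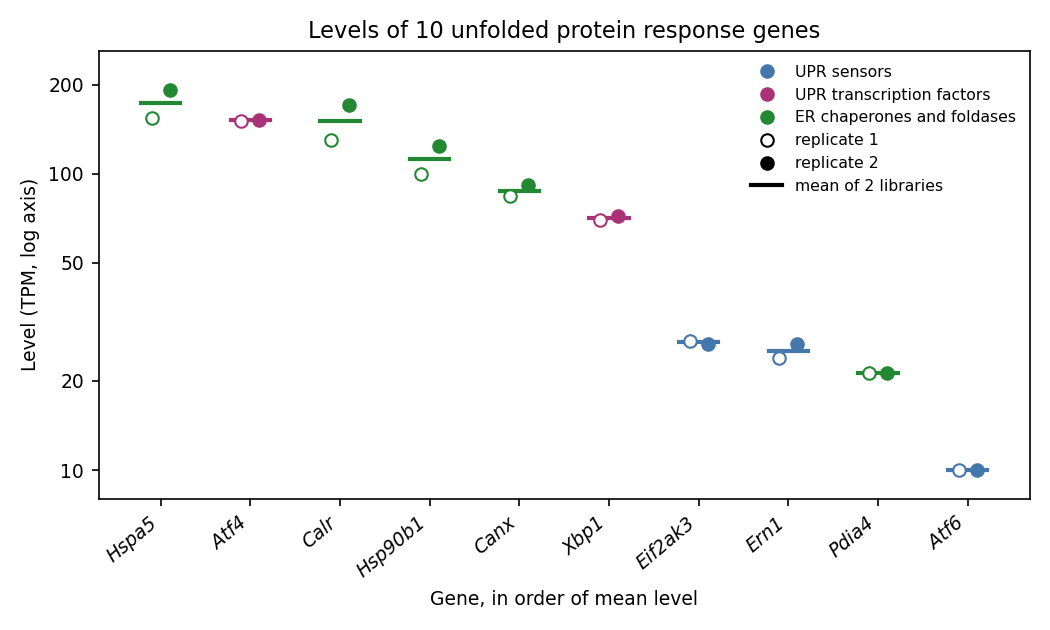
Level of each gene in TPM on a log axis, with an open point for replicate 1, a filled point for replicate 2 and a bar for the mean of the 2 libraries; colours give the role of the gene. Hspa5 is highest at a mean of 173 TPM and Atf6 lowest at 9.995 TPM, and the libraries lie farther apart for Hspa5, Calr and Hsp90b1 than for the other genes.

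In order of mean level, Hspa5 stood at 173 ± 26.7 TPM, Atf4 at 151 ± 1.09 TPM, Calr at 150.3 ± 28.5 TPM and Hsp90b1 at 112 ± 17.7 TPM (SD, n = 2). Hspa5, Atf4 and Calr differed from each other by less than the sum of their SDs, so their order is not resolved. Hsp90b1 was lower than Hspa5 by 60.96 TPM (sum of SDs 44.4) and than Atf4 by 39.3 TPM (sum of SDs 18.8), but its difference from Calr was within that sum. Canx followed at 87.7 ± 5.21 TPM and Xbp1 at 70.8 ± 1.39 TPM (SD, n = 2), and the step from Canx to Xbp1 was larger than that sum. The step from Hsp90b1 to Canx was 24.2 TPM (sum of SDs 22.9), but in the second transcript table, which was also deposited, it was 1.53 TPM (sum of SDs 4.47). In that table Calr exceeded Hsp90b1 by 74.45 TPM (sum of SDs 19.4), so whether either pair is resolved depends on the table. Eif2ak3 at 26.9 ± 0.389 TPM and Ern1 at 25.3 ± 1.91 TPM (SD, n = 2) were not resolved from each other. Pdia4 at 21.2 ± 0.0495 TPM and Atf6 at 9.995 ± 0.0354 TPM (SD, n = 2) were each set off from the gene above. The genes were compared by this spread alone, without a test.

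The sensor genes were expressed at modest levels that were close in both libraries. Ern1, which encodes the RNA-cutting sensor IRE1 (ENSMUSG00000020715.9, chromosome 11, 106394650 to 106487852, minus strand, on mm10), stood at 23.95 TPM in replicate 1 and 26.65 TPM in replicate 2. Its counts were 2163 and 2166 reads, a ratio of 1.03 (95% interval 0.967 to 1.09). Eif2ak3, the PERK kinase gene (ENSMUSG00000031668.14, chromosome 6, 70844515 to 70905245, plus strand), stood at 27.22 and 26.67 TPM. Its 1930 reads in replicate 1 and 1719 in replicate 2 gave a ratio of 0.914 (95% interval 0.856 to 0.975), the lowest of the 10 genes. Atf6, the sensor that becomes a transcription factor once cut (ENSMUSG00000026663.6, chromosome 1, 170704674 to 170867771, minus strand), stood at 10.02 and 9.97 TPM. Its counts were 1282 and 1230 reads, a ratio of 0.984 (95% interval 0.909 to 1.06). Ern1 and Atf6 have ratio intervals that include 1, and that of Eif2ak3 lies below 1.

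Both transcription factor genes were nearly level between the libraries. Atf4, translated when PERK or a related kinase is active (ENSMUSG00000042406.8, chromosome 15, 80255184 to 80257541, plus strand), stood at 150.46 TPM in replicate 1 and 152 TPM in replicate 2. Its 4793 and 4698 reads gave a ratio of 1.01 (95% interval 0.965 to 1.05), the ratio nearest to 1 among the 10 genes. Xbp1, the substrate of IRE1 (ENSMUSG00000020484.18, chromosome 11, 5520659 to 5525893, plus strand), stood at 69.85 and 71.82 TPM. With 2121 and 2110 reads its ratio was 1.02 (95% interval 0.960 to 1.08), over both forms of the message together. These are levels of messenger RNA and do not measure the activity of IRE1 on Xbp1 or the translation of Atf4.

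Of the 5 chaperone and folding enzyme genes, 4 had more reads in replicate 2, by less than 2-fold. Hspa5 encodes BiP, the ER member of the HSP70 family, which binds the sensors and keeps them inactive in unstressed cells (ENSMUSG00000026864.13, chromosome 2, 34771970 to 34777547, plus strand). It stood at 153.94 TPM in replicate 1 and 191.75 TPM in replicate 2, and its 5964 and 7387 reads gave a ratio of 1.27 (95% interval 1.23 to 1.31). Calr encodes calreticulin, a lectin chaperone of the lumen that also binds calcium (ENSMUSG00000003814.8, chromosome 8, 84841850 to 84846934, minus strand). It stood at 130.16 and 170.45 TPM, with 4649 and 5742 reads and a ratio of 1.27 (95% interval 1.22 to 1.32). Both genes were higher in replicate 2 by TPM and by reads.

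Canx encodes calnexin, the membrane-bound partner of calreticulin (ENSMUSG00000020368.15, chromosome 11, 50293961 to 50325673, minus strand). It stood at 83.99 TPM in replicate 1 and 91.36 TPM in replicate 2, and its 4926 and 5387 reads gave a ratio of 1.12 (95% interval 1.08 to 1.17). Hsp90b1 encodes GRP94, the ER member of the HSP90 family (ENSMUSG00000020048.13, chromosome 10, 86690209 to 86705509, minus strand). It stood at 99.4 and 124.38 TPM, with 4878 and 5144 reads and a ratio of 1.08 (95% interval 1.04 to 1.125). Pdia4, a protein disulfide isomerase that forms and rearranges disulfide bonds (ENSMUSG00000025823.9, chromosome 6, 47796141 to 47813430, minus strand), stood at 21.25 and 21.18 TPM. Its 925 and 890 reads gave a ratio of 0.987 (95% interval 0.899 to 1.08). Pdia4 was thus the 1 gene of the 5 whose interval includes 1.

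Reads of each gene in replicate 2 were set against those in replicate 1 by an exact two-sided binomial test, adjusted over the 12429 genes with enough reads. Calls needed both an adjusted p no higher than 0.05 and a ratio of 2-fold or more. None of the 10 genes was called, where 279 of all tested genes were (2.24%). At the same adjusted p whatever the fold, 4 of the 10 were higher in replicate 2, where 11.8% of all tested genes were. They were Hspa5 (adjusted p = 3.9e-41), Calr (2.88e-31), Canx (1.16e-07) and Hsp90b1 (0.000818) by the exact binomial test. By the same count 1 of the 10 was lower, Eif2ak3 (adjusted p = 0.0306, exact binomial test), where 12.9% of all tested genes were lower.

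The median log2 ratio was 0.17 over the 5 chaperone and folding enzyme genes, 0.01 over the other 5 genes and 0.03 over all 10, against -0.00 over all tested genes. All 10 ratios lay inside the central 90% of the tested genes, which ran from -0.44 to 0.52. Of all tested genes, 17.8% had a log2 ratio at least as far from 0 as that of Hspa5 (0.35), and 18.1% as that of Calr (0.34). The binomial test holds counting error only and compares these 2 libraries. edgeR's negative binomial exact test sets each ratio against a spread estimated from the same 2 libraries (a coefficient of variation of 11.6%), so it places a gene within the general spread and is no independent check. There the adjusted p was 1 for each of the 10 genes, and none had an unadjusted p under 0.05 (smallest 0.149).

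**Figure D2:**
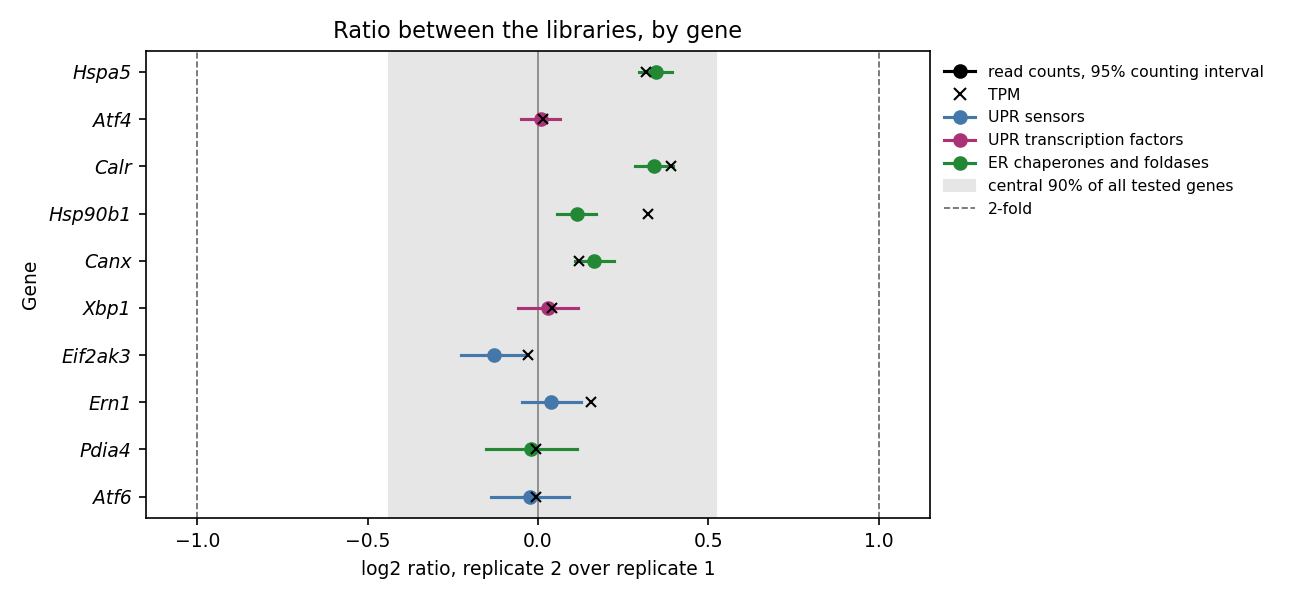
log2 ratio of replicate 2 over replicate 1 for each gene, from read counts with the 95% counting interval (points and lines, coloured by role) and from TPM (crosses); the grey band holds the central 90% of all tested genes and dashed lines mark 2-fold. Every gene lies inside the band, and Hsp90b1 has a TPM ratio of 1.25 that is well above its count ratio of 1.08.

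Markers of several cell types differed between the libraries beside these chaperone genes. For the counts that follow, 2.24% of all tested genes were called, in either direction. At the adjusted p whatever the fold, 11.8% were higher in replicate 2 and 12.9% lower. Genes with many reads pass that adjusted p at small ratios, as S100a9 did at a log2 ratio of -0.11. Genes listed as primary granule (promyelocyte) markers summed to 1450 TPM in replicate 1 and 1662 TPM in replicate 2. At an adjusted p no higher than 0.05, 4 of 7 were higher and 1 was lower, with a median log2 ratio of 0.32. The 1 lower was Srgn, the highest of this list by mean TPM, at 492 TPM in replicate 1 and 438 TPM in replicate 2. Erythroid markers had a median log2 ratio of 1.69, with 5 of 8 called higher in replicate 2. At the adjusted p whatever the fold, 6 of them were higher and 1 was lower, Hbb-bs at a log2 ratio of -0.37. Hba-a1 and Alas2 had log2 ratios of 0.09 and 0.01. Fibroblast and osteoblast markers summed to 53.9 and 193 TPM, with 4 of 6 called higher. Col1a1 alone held 24.9 and 96.4 TPM of these sums. Ibsp was not called (log2 ratio 0.37). Col3a1, at 11 reads in replicate 1 and 8 in replicate 2, had too few to be tested. Plasma cell markers, from the cells best known for a large ER, had 1 of 8 called lower and a median log2 ratio of -0.70. Of 5 tested, 4 were lower at the adjusted p, and Iglv1 had a ratio of 1.00. Sdc1, the 1 called lower, had 44 reads in replicate 1 and 15 in replicate 2. Its log2 ratio was -1.49 by reads and -0.46 by TPM (0.85 and 0.62 TPM). Irf4 was lower by reads but not by TPM, at 8.57 TPM in replicate 1 and 9.05 TPM in replicate 2. Tnfrsf17, at 4 reads in replicate 1 and 0 in replicate 2, had too few to be tested. B cell markers had a median log2 ratio of -1.07, with 4 of 8 called lower. Eosinophil markers had 1 of 6 called lower, and 3 of 4 tested were lower at the adjusted p whatever the fold. By that same count 7 of 10 neutrophil markers were lower and 2 higher (median log2 ratio -0.13), 5 of 6 monocyte markers were lower and none higher, and 2 of 3 tested macrophage markers were lower, with no 2-fold call in these lists. Basophil markers had none at the adjusted p, and no T and NK cell marker had enough reads to be tested. The part of these cells in the levels or ratios of the 10 genes was not tested.

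The ratio of TPM and the ratio of reads parted for Hsp90b1. Its TPM was 1.25-fold higher in replicate 2 and its reads 1.08-fold. Hsp90b1-205, a retained-intron transcript of 268 bases, had 4.57 TPM in replicate 1 and 21.85 TPM in replicate 2, from 14.54 and 67.08 estimated reads. In the second transcript table the same transcript has 0 reads in both libraries. The protein-coding transcript Hsp90b1-201 had 89.99 TPM in replicate 1 and 95.68 TPM in replicate 2, a 1.06-fold difference. Over protein-coding transcripts alone the TPM ratio was 1.30 for Hspa5, 1.26 for Calr and 1.14 for Canx.

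Most reads of each gene were assigned to protein-coding transcripts. For Pdia4 all reads went to Pdia4-201 in both libraries. For Atf6, 97.8% of reads in replicate 1 and 97.7% in replicate 2 went to the coding transcript, and Atf6-201 held 92.5% and 92.3% of the gene's TPM. Atf4 had the lowest coding share, with 77.7% and 74.5% of reads. Its single-exon transcript Atf4-203, annotated as a retained intron, took 19.6% and 22.5% of the gene's TPM, beside 80.4% and 77.5% for the coding Atf4-201. The libraries were made from total RNA, which includes unspliced molecules.

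The main coding transcript was the same in both libraries for each gene. Xbp1-201 held 62.8% and 63.1% of the TPM of Xbp1, with the retained-intron transcript Xbp1-202 at 17.9% and 16.7% and the coding Xbp1-204 at 11.04% and 11.08%. Hspa5-202 held 72.0% and 75.1% of the TPM of Hspa5, and the retained-intron transcript Hspa5-205 held 11.1% and 7.64%. Canx-201 held 75.0% and 78.4% of the TPM of Canx, with the noncoding Canx-202 at 19.2% and 15.5%. Calr-201 held 85.2% and 81.8% of the TPM of Calr. In the sensors, Eif2ak3-201 held 79.1% and 73.4% of its gene's TPM, with Eif2ak3-205, a retained-intron transcript, at 13.04% and 7.22%. Ern1-201, the full-length transcript, held 63.4% and 58.4% of the TPM of Ern1. The shorter coding transcripts Ern1-204 (13.8% and 16.6%), Ern1-202 (13.95% and 10.8%) and Ern1-203 (7.13% and 14.2%) rest on 17.92 to 150.05 reads per library.

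**Figure D3:**
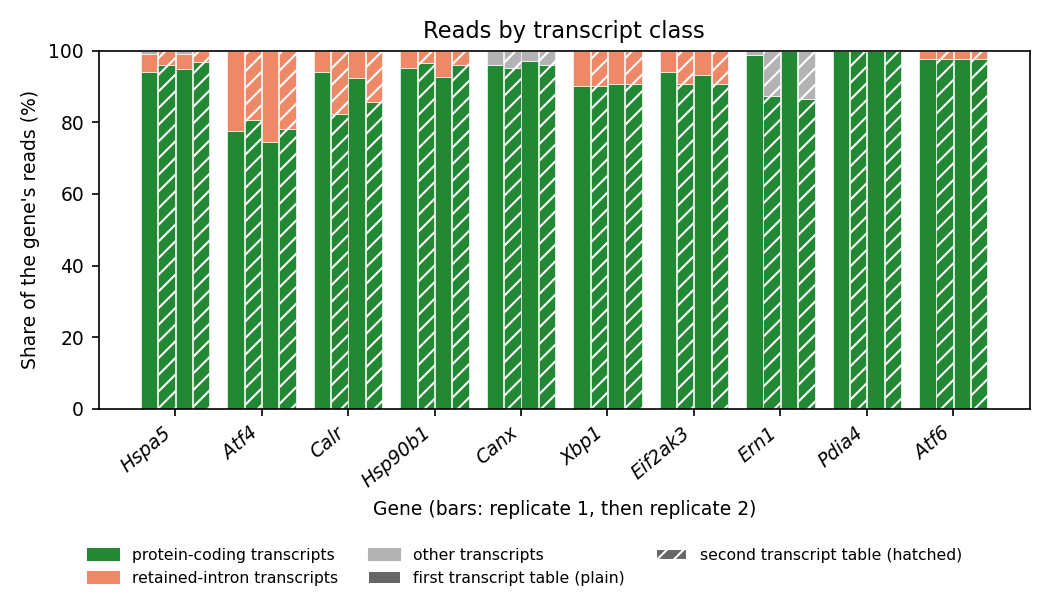
Share of each gene's estimated reads by transcript class, for replicate 1 and then replicate 2, in the first transcript table (plain bars) and the second (hatched bars). Protein-coding transcripts hold 74.5% or more of the reads of every gene, the lowest share being that of Atf4 in replicate 2.

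Where the transcripts of a gene overlap, the tables assigned the reads differently. Calr-204, a retained-intron transcript, had 121.76 reads in replicate 1 and 211.97 in replicate 2 in the first table, against 701 and 649 in the second. Ern1-205, a noncoding transcript, had 25.17 and 0 reads in the first table and 305 and 320 in the second. Atf4-202 had 0 reads in both libraries in the first table and 54.6 and 167 in the second. The direction between the libraries differs between the tables for Calr-204. Transcript values of these genes are therefore estimates that depend on the program, while the gene counts of all 10 were whole numbers within 0.005 in both libraries, as they are where no read is divided between genes.

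Other genes of the pathway were expressed nearly as broadly. They were taken as 60 genes in 4 lists, all matched, of which 56 stood at 1 TPM or more in each library and 56 had enough reads to be tested. None of the 56 was called by the exact binomial test with the 2-fold threshold (2.24% of all tested genes were), and their median log2 ratio was 0.00. At the adjusted p whatever the fold, 9 of the 56 were higher in replicate 2 and 3 were lower, where 11.8% and 12.9% of all tested genes were. In edgeR's test, with the same limit as above, none of the 56 had an adjusted p of 0.05 or less, and 1 had an unadjusted p under 0.05 (smallest adjusted p 0.441).

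Among 14 signalling partners of the sensors, 13 were tested, with a median log2 ratio of -0.06. The highest was Map3k5, the kinase ASK1 that acts downstream of IRE1 and TRAF2, at 60.07 TPM in replicate 1 and 51.93 TPM in replicate 2. It was the 1 gene of this list to pass the adjusted p, at a log2 ratio of -0.21 (adjusted p = 5.96e-08, exact binomial test). Of all tested genes, 12.9% passed lower. Atf6b, a relative of Atf6, followed at 32.6 and 27.96 TPM, and Creb3, another membrane-bound transcription factor gene, at 30.56 and 25.78 TPM. Ern2, the epithelial relative of Ern1, had 0 reads in both libraries.

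Among 14 targets of PERK and ATF4, 13 were tested, with a median log2 ratio of -0.08. The highest was Atf3, a stress-induced transcription factor gene, at 158.63 TPM in replicate 1 and 165.75 TPM in replicate 2. Ppp1r15a, whose product GADD34 directs dephosphorylation of eIF2 alpha, followed at 78.6 and 116.89 TPM, with a log2 ratio of 0.47 (adjusted p = 4.84e-29, exact binomial test). Slc3a2, the heavy chain of amino acid transporters, stood at 54.69 and 56.17 TPM. The lowest was the lipoprotein receptor gene Vldlr, at 0.03 TPM in both libraries. In this list 2 of the 13 tested genes passed the adjusted p higher and 1 lower, beside 11.8% and 12.9% of all tested genes. Atf3, Ppp1r15a and several others of this list are also induced by signals other than ER stress.

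Among 18 targets of XBP1 and ATF6, 17 were tested, with a median log2 ratio of 0.08 and 12 ratios above 0. The highest were the translocon genes Sec61a1, at 71.74 TPM in replicate 1 and 77.18 TPM in replicate 2, and Sec61b, at 66.68 and 71.8 TPM. Edem1, which takes part in the degradation of misfolded glycoproteins, stood at 70.58 and 67.43 TPM. Derl3 was lowest at 0.27 and 0.53 TPM; it is also on the plasma cell list. At the adjusted p whatever the fold, 4 of the 17 were higher and 1 was lower in replicate 2, beside 11.8% and 12.9% of all tested genes. Named after their values were seen, the 4 were Hyou1, Manf, Dnajb11 and Sdf2l1, with log2 ratios of 0.28, 0.25, 0.27 and 0.27, and the 1 was Herpud1 at -0.18.

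Among 14 other ER folding enzymes, 13 were tested, with a median log2 ratio of 0.02. P4hb, the founding protein disulfide isomerase gene, was highest at 133.03 TPM in replicate 1 and 141.76 TPM in replicate 2. The cyclophilin gene Ppib stood at 97.66 and 99.14 TPM. Pdia3, the isomerase that works with calnexin and calreticulin, stood at 75.15 and 74.55 TPM, with a log2 ratio of reads of 0.12 (adjusted p = 0.00322, exact binomial test). The testis chaperone gene Clgn, a relative of Canx, was lowest, with 0 and 6 reads. In this list 3 of the 13 tested genes passed the adjusted p higher and none lower, beside 11.8% and 12.9% of all tested genes.

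**Figure D4:**
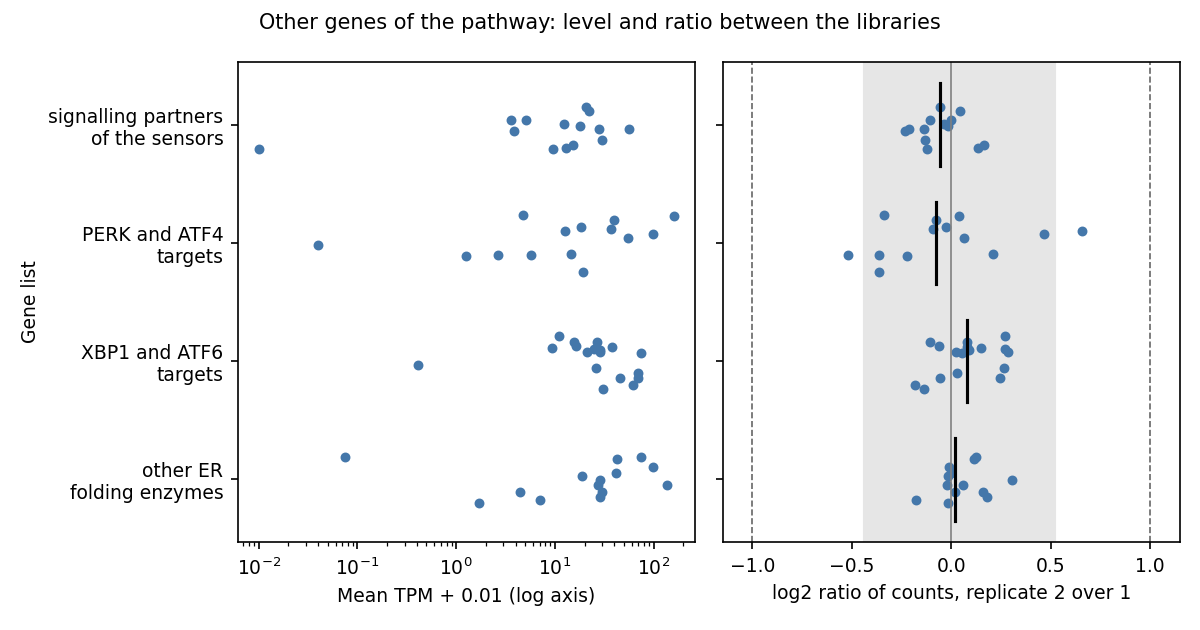
Other genes of the pathway by list: mean TPM plus 0.01 on a log axis (left) and log2 ratio of counts for the tested genes, replicate 2 over replicate 1 (right), with a bar at each list's median, a grey band for the central 90% of all tested genes and dashed lines at 2-fold. All tested genes lie within 2-fold, and the list medians run from -0.08 to 0.08.

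The ER stress response element was looked for in the other pathway genes as well. It was present in 3 of 14 promoters of XBP1 and ATF6 targets (Creld2, Derl3 and Syvn1), in 1 of 12 of the signalling partners (Dnajc3), in 1 of 10 of the other folding enzymes (Pdia6) and in 0 of 14 of the PERK and ATF4 targets. Over the whole genome, the 39 promoters belong to 37 gene symbols, of which 15 were tested here. Of those 15, 11 had a ratio above 0. At the adjusted p, 5 passed higher in replicate 2 (11.8% of all tested genes did) and 1 lower (12.9% did). Hspa5, Calr, Canx and Hsp90b1 are 4 of those 5. Without these 4 genes, 7 of 11 ratios were above 0, 1 passed higher and 1 lower, and the median log2 ratio was 0.03. The 1 lower was Calr4, at 1.9 TPM in replicate 1 and 0.63 TPM in replicate 2. It was called with the 2-fold threshold, at a log2 ratio of -1.10 (adjusted p = 0.00981, exact binomial test). Of all tested genes, 2.24% were called.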

How the data were processed

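Total RNA was depleted of ribosomal RNA and libraries keep strand, per the labels. The authors deposited, per library, a table of genes (expected count, TPM and interval bounds of TPM, a signal of unstated level that was not used), a transcript table that adds the percent of a gene's TPM per transcript, and a second transcript table with estimated counts and TPM, made directly from the reads. Build mm10 and annotation M21 are per the deposited file lists; the sources used here name no aligner, estimator or version. Of counts above 0, 16.3% and 16.0% were not whole; they were rounded for testing.

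Genes holding 50 or more counts over both libraries were tested with an exact conditional binomial test (Benjamini-Hochberg adjustment), with annotated genes other than ribosomal RNA as offsets (18060581 and 17609100 reads) and 0.5 added to counts for folds. Intervals are Clopper-Pearson at 95%. Intervals and p-values cover counting error only. edgeR 4.0.16 gave TMM and the negative binomial test, DESeq2 1.42.0 size factors (R 4.3.3); the rest used Python 3.11.15 and scipy 1.17.1. The binomial script was tested on simulated data. All 10 genes are described; of each other list the 3 highest by mean TPM, the lowest and any called gene are named, and transcripts with at least 10% of a gene's TPM. With 2 libraries no likeness of pattern was computed. The genes and lists were chosen with earlier results of these data known.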

Additional observations from a re-analysis of the deposited data

How the results depend on the processing

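None of the 10 genes was called under any alternative run: TMM factors, DESeq2 size factors, offsets from protein-coding genes, the second transcript table, no filter on low counts, a 1.5-fold threshold or edgeR's negative binomial exact test. Of the 60 other pathway genes, 1 (Asns) was called at 1.5-fold and 0 under the others. At the adjusted p whatever the fold, Hspa5, Calr, Canx and Hsp90b1 passed in every alternative except edgeR's test (whose spread comes from the same libraries), and Eif2ak3 missed it there and with protein-coding offsets. Of 40 log2 ratios under other offsets or the second table, 38 kept their sign; Atf4 was -0.0041 with DESeq2 size factors and Pdia4 0.0007 with protein-coding offsets. The chaperone minus sensor difference was 1.88 by TPM of the second table, and 2.01 to 2.18 with either library left out. With protein-coding transcripts alone, an alternative chosen after seeing the data, it was 2.04. TPM rescaled to protein-coding genes raised each of the 10 levels 2.14-fold (Hspa5 to 369.6 TPM). Over all alternatives, 28 of 60 mean levels moved by more than 1 SD of the 2 libraries. Leaving out 1 of 2 libraries cannot move a mean by that much, and the rescaling moved all 10 levels. That share is therefore no measure of how stable the levels are. By posterior mean TPM, the second table and protein-coding transcripts alone, levels were 0.769 to 1.154 times those reported. In the second table Calr stood highest, above Atf4 and then Hspa5, and Ern1 stood above Eif2ak3. Each of these differences was within the sum of the SDs, so this order is not resolved either. The share of spliced Xbp1 and its alternatives could not be computed, since the annotation does not separate the forms. No paired analysis was possible because there is 1 group. With 2 libraries, the spread of each level rests on a single difference.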
